A study of Mus musculus with 16 samples.

Results

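Solute carriers are membrane proteins that move sugars, amino acids, ions, metals, vitamins and metabolites across cell and organelle membranes. Their genes were taken here as all array symbols that begin with Slc and a number, apart from 1 symbol left out by the rule. Of 346 such genes on the array, 212 had a probe set that could be placed on a row of values, out of 9866 genes named in all. The other 134 were not analysed here. The low-value filter, which asked for over log2 4 on at least 4 of the 16 arrays, left 143 of the 212 for testing; 59 of the 69 untested genes were under log2 4 on every array.

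Whole mouse lung was profiled on 16 Affymetrix arrays, in 4 groups of 4. Mice titled BALB/c and mice titled BALB-RAG received either the allergen ovalbumin (OVA), a protein of egg white, or the control, phosphate-buffered saline (PBS). Lungs were harvested on day 22, which was 1 day after the exposure ended. The labels give no age or sex, do not say which Rag allele the second line carries, and do not say whether arrays came from separate animals, so the tests measure the spread between samples, which may be technical. Mice without a working Rag gene cannot assemble antigen receptors and lack mature T and B cells. The arrays went against that title in part: the mean level of 10 T-cell markers was log2 4.22 to 4.78 on BALB-RAG PBS arrays and 4.2 to 4.64 on BALB/c PBS arrays. After ovalbumin it was 3.25, 3.65 and 3.55 on BALB-RAG replicates 1, 3 and 4 but 5.10 on replicate 2. The groups are therefore called arrays labelled BALB-RAG, and results that rest on replicate 2 are also given without it. The lung itself was well represented: the mean of 8 alveolar type II markers was 11.1 to 11.7 on all 16 arrays. Median intensity per array was 18.2 to 20.5, and every level below is a log2 intensity, given in the order of replicates 1 to 4. Levels of different genes are not compared, because each probe set has its own brightness.

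In the lung, solute carriers serve gas-exchange and airway epithelium, which moves phosphate, chloride, bicarbonate and glucose across the surface liquid, and leukocytes, which take up amino acids and handle metals in phagosomes. Macrophages activated by type 2 cytokines take up arginine and turn it into ornithine by arginase. Mitochondrial carriers of the same superfamily exchange nucleotides, dicarboxylates and cofactors across the inner membrane. Whole tissue was measured, so fewer cells of a type and less RNA per cell cannot be told apart.

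After ovalbumin, BALB/c lungs had higher levels of single transporters for amino acids, glucose, peptides and metals, and lower levels of others for amino acids, bicarbonate, vitamins and glucose. By limma with Benjamini-Hochberg adjustment over all 7276 genes tested, 13 of the 143 transporters rose and 12 fell. Among all genes tested, 8.73% rose and 6.78% fell (15.5% in either direction), so the transporters' shares of 9.09% and 8.39% were near the background. Their median difference was -0.01 against 0.00 for all genes. The BALB/c groups did not overlap for 29 transporters, where 19.6% of all genes tested showed no overlap. 

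Slc6a20a, which carries proline and other imino acids, showed the largest rise. Its level in BALB/c was 4.48, 4.13, 3.45 and 5.25 after saline and 7.28, 7.01, 7.28 and 7.09 after ovalbumin. On the arrays labelled BALB-RAG it was 2.84, 3.7, 4.48 and 2.63 after saline and 3.33, 4.32, 3.4 and 3.43 after ovalbumin. The BALB/c OVA arrays lay between 7.01 and 7.28 and above all 12 others, a difference of 2.84 ± 0.39 (SE; 7.15-fold; adjusted p = 0.000167). With values under log2 4, as on 1 BALB/c PBS array, set to 4, the rise was 2.70. The increase was 2.84 in replicates 1 and 2 and 2.84 in replicates 3 and 4.

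Both other risen amino acid carriers of large effect belong to the Slc7 family. Slc7a8, a carrier of large neutral amino acids, read 3.28, 3.56, 3.37 and 3.53 after saline and 5.92, 6.06, 5.72 and 4.03 after ovalbumin in BALB/c. All 4 saline arrays were under the background of log2 4, taken as a bound with values below it set to 4, so the rise was at least 2.70-fold (fitted difference 2.00 ± 0.32, adjusted p = 0.000585). Replicate 4 stood apart at 4.03 and barely cleared the background. On the arrays labelled BALB-RAG, Slc7a8 was under log2 4 on all 8, between 3.21 and 3.96. Slc7a2, which takes up arginine and other cationic amino acids, had 4.64, 4.64, 3.68 and 4.64 after saline and 5.87, 7.0, 6.45 and 6.02 after ovalbumin in BALB/c. Its groups were apart, with a rise of 1.94 ± 0.31 (3.83-fold, adjusted p = 0.000592). The arrays labelled BALB-RAG gave 3.82, 4.33, 4.9 and 4.4 after saline and 5.46, 4.39, 5.38 and 5.33 after ovalbumin, where 3 of 4 OVA arrays were above every saline array. Slc7a1, another arginine carrier, was between 2.57 and 2.94 on all 16 arrays and was not tested. Slc6a6, the taurine transporter, rose by a smaller 0.74 ± 0.22 (adjusted p = 0.0283), from 6.58, 6.28, 6.92 and 6.99 to 7.14, 7.56, 7.45 and 7.58.

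Among sugar carriers, Slc5a1, the sodium-coupled glucose transporter, rose. It was at 4.5, 4.13, 3.96 and 3.25 after saline and 5.79, 6.27, 5.48 and 5.94 after ovalbumin in BALB/c, without overlap, a difference of 1.91 ± 0.25 (3.76-fold, adjusted p = 0.000111). On the arrays labelled BALB-RAG it was 4.19, 4.15, 3.28 and 4.03 and 4.44, 4.31, 4.47 and 4.62; these groups did not overlap either, but the difference of 0.55 ± 0.25 did not pass the test (adjusted p = 0.639). Of 11 carriers tested in the sugar carrier families, 1 rose and 1 fell in BALB/c. Slc2a1, the main basal glucose carrier, differed by 0.41 ± 0.19 in BALB/c (adjusted p = 0.163) and by 0.58 ± 0.19 on the arrays labelled BALB-RAG (adjusted p = 0.315).

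Slc15a3, which exports histidine and short peptides from lysosomes, and Slc11a1, which moves divalent metals out of phagosomes of macrophages and neutrophils, rose in BALB/c. Slc15a3 read 6.87, 6.72, 6.13 and 5.93 after saline and 8.85, 8.71, 7.9 and 7.55 after ovalbumin, a rise of 1.84 ± 0.29 (3.57-fold, adjusted p = 0.000426). The labelled BALB-RAG arrays gave 5.99, 6.15, 5.7 and 6.22 and 6.22, 5.68, 6.14 and 6.46, with full overlap. Slc11a1 went from 6.15, 6.37, 6.35 and 6.07 to 8.45, 8.52, 7.52 and 6.75 in BALB/c, a rise of 1.58 ± 0.36 (2.98-fold, adjusted p = 0.00633). Its rise was 2.22 in replicates 1 and 2 and 0.93 in replicates 3 and 4. Slc11a1 on the arrays labelled BALB-RAG was 5.68, 6.75, 5.19 and 5.4 after saline and 6.37, 6.08, 6.25 and 6.32 after ovalbumin. Macrophage markers moved with both genes: 7 of 8 tested rose in BALB/c, and the mean of 9 markers was 6.84, 7.06, 6.42 and 6.29 after saline and 8.68, 8.56, 8.15 and 7.81 after ovalbumin. Their part in the rise of Slc15a3 and Slc11a1 was not tested. The other related peptide carrier tested, Slc15a2 of alveolar epithelium, differed by -0.32 ± 0.29 (adjusted p = 0.555).

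Metal carriers had 3 rises and 0 falls among 21 tested in BALB/c by limma (4 and 0 at an unadjusted p under 0.05). Besides Slc11a1, these were the zinc carriers Slc39a11 and Slc39a14. Slc39a14, which also imports iron, rose by 0.65 ± 0.18 (adjusted p = 0.025; 0.10 on a second probe set), and Slc39a11 by 0.83 ± 0.24 (adjusted p = 0.0261). The groups overlapped for both. Slc40a1, the iron exporter, was 3.68, 6.43, 4.62 and 6.06 after saline and 6.94, 5.72, 7.07 and 7.36 after ovalbumin on the arrays labelled BALB-RAG. That was the largest average rise of a transporter there, 1.58 ± 0.51, yet the saline arrays ran from 3.68 to 6.43 and the adjusted p was 0.317. In BALB/c Slc40a1 differed by 0.35 ± 0.51.

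The remaining rises were under 1 log2 unit. Slc8b1, the mitochondrial sodium-calcium exchanger, rose by 0.65 ± 0.14 (adjusted p = 0.00564), and Slc25a10, the dicarboxylate carrier, by 0.52 ± 0.16 (adjusted p = 0.0329). Slc4a2, an anion exchanger, rose by 0.39 ± 0.12 (adjusted p = 0.0377). Slc35f6 rose by 0.72 ± 0.23 (0.37 on a second probe set) with an adjusted p of 0.0472, the closest to the threshold of the 13.

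**Figure D1:**
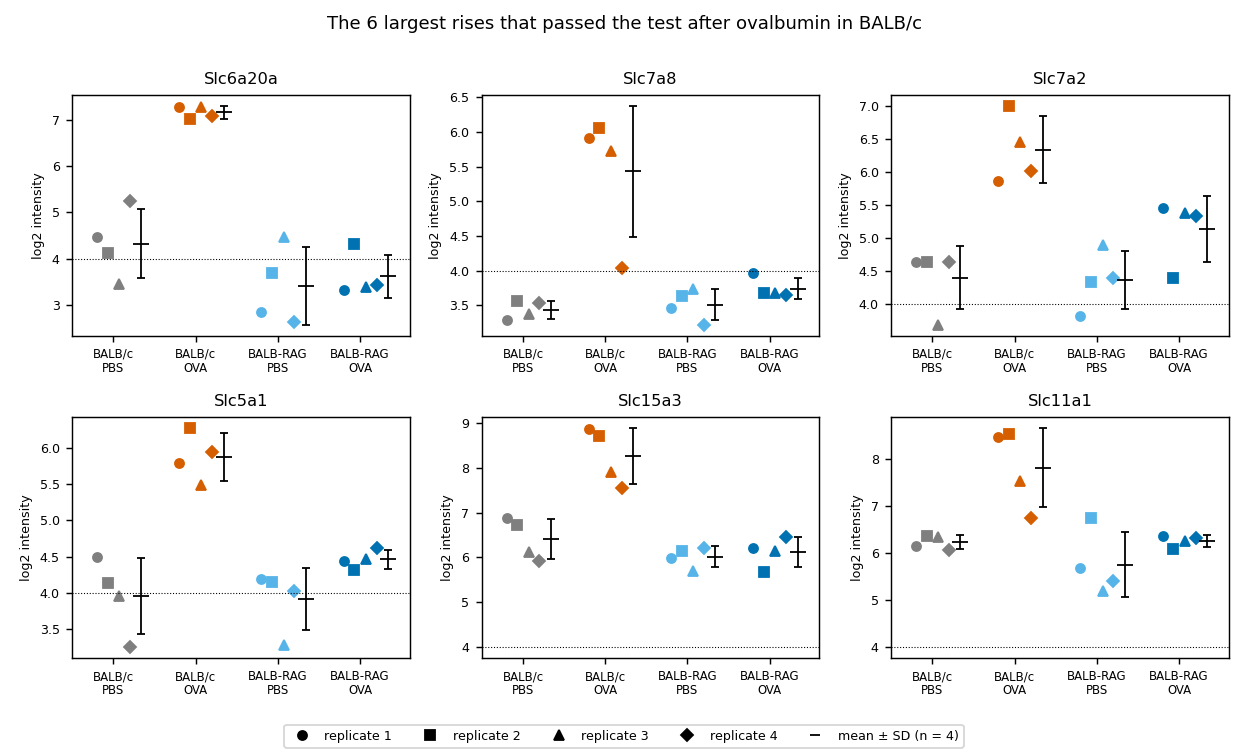
Log2 intensity per array of the 6 transporters with the largest rise that passed the test after ovalbumin in BALB/c, by group; symbols mark replicates, bars the mean ± SD (n = 4), and the dotted line the background of log2 4. The BALB/c OVA arrays sit above the BALB/c PBS arrays in each panel, and 1 array of Slc7a8 lies at 4.03.

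Promoter windows show the letters around the start sites of genes that moved. Windows of 250 bases before to 50 after a start came from RefSeq (GRCm38.p6) and existed for 168 transporters, 8 of the 13 risen and 8 of the 12 fallen. Shown are 4 risen genes of large effect and Slc7a10, the largest fall that passed the test. Capitals mark matches on either strand to TTCNNNNGAA (STAT6-type), GAAANNGAAA (interferon response core), TGANTCA (AP-1), CACGTG (E-box), GGGCGG (GC box) and GAGGAA (ETS core); letters of 1 match may fall inside another.
Slc6a20a, chr9:123678783-123679082, minus strand: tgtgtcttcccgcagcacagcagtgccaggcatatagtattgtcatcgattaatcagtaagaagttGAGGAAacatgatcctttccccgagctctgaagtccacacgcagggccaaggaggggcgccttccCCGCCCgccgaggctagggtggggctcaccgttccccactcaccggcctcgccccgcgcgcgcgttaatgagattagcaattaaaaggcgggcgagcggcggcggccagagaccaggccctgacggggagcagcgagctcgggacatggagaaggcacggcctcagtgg
Slc7a8, chr14:54781837-54782136, minus strand: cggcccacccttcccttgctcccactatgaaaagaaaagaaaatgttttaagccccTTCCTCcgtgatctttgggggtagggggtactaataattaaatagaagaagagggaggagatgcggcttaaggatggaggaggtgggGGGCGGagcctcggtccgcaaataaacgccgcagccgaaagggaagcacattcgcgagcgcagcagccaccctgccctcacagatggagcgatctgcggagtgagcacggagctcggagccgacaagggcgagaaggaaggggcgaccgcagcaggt
Slc5a1, chr5:33103969-33104268, plus strand: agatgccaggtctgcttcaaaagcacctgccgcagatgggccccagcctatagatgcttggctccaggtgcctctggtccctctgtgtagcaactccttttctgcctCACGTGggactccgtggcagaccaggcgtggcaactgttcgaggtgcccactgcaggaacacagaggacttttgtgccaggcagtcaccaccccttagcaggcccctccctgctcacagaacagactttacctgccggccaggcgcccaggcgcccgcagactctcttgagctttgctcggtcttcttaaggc
Slc11a1, chr1:74374953-74375252, plus strand: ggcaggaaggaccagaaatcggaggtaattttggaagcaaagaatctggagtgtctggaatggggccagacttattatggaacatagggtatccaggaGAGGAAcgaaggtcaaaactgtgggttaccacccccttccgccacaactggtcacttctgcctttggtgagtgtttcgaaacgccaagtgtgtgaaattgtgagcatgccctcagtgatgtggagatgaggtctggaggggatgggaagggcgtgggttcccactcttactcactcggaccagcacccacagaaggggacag
Slc7a10, chr7:35186135-35186434, plus strand: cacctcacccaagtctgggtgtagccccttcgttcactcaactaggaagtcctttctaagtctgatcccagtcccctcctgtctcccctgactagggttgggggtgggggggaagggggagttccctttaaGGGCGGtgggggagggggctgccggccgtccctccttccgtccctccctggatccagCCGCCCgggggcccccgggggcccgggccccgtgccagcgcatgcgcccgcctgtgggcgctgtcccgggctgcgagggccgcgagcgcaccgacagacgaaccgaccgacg
The shown windows held the ETS core in Slc6a20a, Slc7a8 and Slc11a1, the E-box in Slc5a1 and the GC box in Slc6a20a, Slc7a8 and Slc7a10. Of the 8 risen genes with a window, 4 held the ETS core, 2 the E-box and 5 the GC box; of the 8 fallen genes 1, 0 and 7 did. Among all 32851 windows, 28.3% held the ETS core, 7.15% the E-box and 35.7% the GC box. Among the 168 transporters with a window, 43 held the ETS core, 24 the E-box and 111 the GC box. The STAT6-type pattern was in 0 of the 8 risen and 1 of the 8 fallen genes and in 6.95% of all windows. The interferon core (3.44% of windows) and AP-1 (7.81%) were in none of these 16 genes. A looser pattern searched as well, GGGNNNNNCC, was in 50.8% of all windows, in 6 risen and in 7 fallen genes, and is not capitalised. These are matches of letters in 1 window per start site and describe no binding.

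The largest fall that passed the test in BALB/c was that of Slc7a10, an exchanger of small neutral amino acids that is known from brain and fat. Its level was 6.65, 6.54, 6.62 and 6.76 after saline and 4.43, 3.33, 5.24 and 5.07 after ovalbumin, a difference of -2.12 ± 0.30 (4.36-fold lower, adjusted p = 0.000208). On the arrays labelled BALB-RAG it was 7.4, 7.61, 7.85 and 7.57 after saline and 6.73, 6.18, 6.68 and 6.83 after ovalbumin. Those groups did not overlap, but the difference of -1.0 ± 0.30 did not pass the test there (adjusted p = 0.296). Within BALB/c the fall was -2.71 in replicates 1 and 2 and -1.53 in replicates 3 and 4.

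A further 3 amino acid carriers fell. Slc1a4, an exchanger of neutral amino acids, was 6.93, 6.67, 6.57 and 6.74 after saline and 6.03, 5.24, 5.48 and 5.43 after ovalbumin in BALB/c, a fall of -1.18 ± 0.18 (2.27-fold, adjusted p = 0.000399). It was 5.86, 6.47, 5.85 and 6.46 and 6.09, 6.02, 6.17 and 6.14 on the arrays labelled BALB-RAG, which overlapped. Slc6a15, a carrier of branched-chain amino acids and proline, fell by -1.06 ± 0.26 (adjusted p = 0.0111), from 5.08, 5.59, 4.94 and 4.71 to 4.0, 4.02, 4.3 and 3.76. For Slc6a9, the glycine transporter, BALB/c arrays read 6.6, 6.69, 6.47 and 6.51 and 5.91, 5.57, 6.09 and 5.95, a fall of -0.69 ± 0.14 (adjusted p = 0.00305). Arrays labelled BALB-RAG gave 6.87, 6.64, 6.6 and 6.65 and 6.82, 7.04, 7.33 and 6.87, where the average went the other way, by 0.32 ± 0.14 (adjusted p = 0.586). Over the 24 carriers tested in the amino acid carrier families, 4 rose and 4 fell in BALB/c. These were grouped by family number and include carriers of other substrates, such as the serotonin transporter Slc6a4.

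Single carriers of bicarbonate, thiamine, vitamin C and carnitine fell in the same lungs. Of 7 bicarbonate and anion exchangers tested, 1 rose (Slc4a2) and 1 fell (Slc4a5). Slc4a5, a sodium-bicarbonate cotransporter, was 6.11, 6.3, 6.37 and 6.67 after saline and 5.09, 4.65, 4.76 and 5.8 after ovalbumin in BALB/c, a fall of -1.29 ± 0.25 (2.44-fold, adjusted p = 0.00215). On the arrays labelled BALB-RAG it read 5.1, 5.59, 5.94 and 5.87 and 5.63, 5.38, 5.94 and 6.0, with overlap. Slc19a3, which takes up thiamine, went from 5.93, 5.77, 5.71 and 5.59 to 4.85, 4.91, 4.78 and 4.78, a fall of -0.92 ± 0.16 (adjusted p = 0.000956). Slc23a1, a vitamin C transporter, fell by -0.52 ± 0.14 (adjusted p = 0.0167) and Slc22a5, the carnitine transporter, by -0.89 ± 0.25 (adjusted p = 0.0233). Of 7 vitamin and choline carriers tested, 2 fell and 0 rose by limma (4 and 0 at an unadjusted p under 0.05).

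Slc2a4, the insulin-responsive glucose carrier of fat and muscle, fell by -0.93 ± 0.24 in BALB/c (adjusted p = 0.0167). It went from 5.55, 5.44, 5.25 and 4.99 to 4.86, 4.71, 4.08 and 3.86. The call was lost without BALB/c PBS replicate 1 (-0.85, adjusted p = 0.0508). It was also lost without BALB/c OVA replicate 4 (adjusted p = 0.0513). The mean of 8 skeletal muscle markers was 8.39, 3.56, 3.51 and 3.34 on BALB/c PBS and 3.12, 3.2, 3.24 and 3.39 on BALB/c OVA arrays, with replicate 1 the high saline array, and its part in the fall of Slc2a4 was not tested. The potassium-dependent sodium-calcium exchanger Slc24a3 fell by -0.87 ± 0.24 (adjusted p = 0.0209). Of 26 mitochondrial carriers 1 rose and 2 fell: Slc25a25, an ATP-magnesium carrier, by -0.56 ± 0.13 (adjusted p = 0.00681), and Slc25a51, a carrier of NAD, by -0.46 ± 0.13 (adjusted p = 0.02). Markers of other tissues were lower on average in the same comparison. The mean of 7 adipose markers was 4.83 to 6.13 after saline and 4.34 to 4.88 after ovalbumin, with overlap, and 1 of 6 tested fell by limma. That of 9 cardiac markers was 7.04 to 7.48 and 5.74 to 6.56, and 1 of 8 tested fell (6 at an unadjusted p under 0.05). Endothelial markers (6 of 11 tested fell) and club cell markers (6 of 8 fell) were lower in BALB/c after ovalbumin as well. Their part in the transporter falls was not tested.

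**Figure D2:**
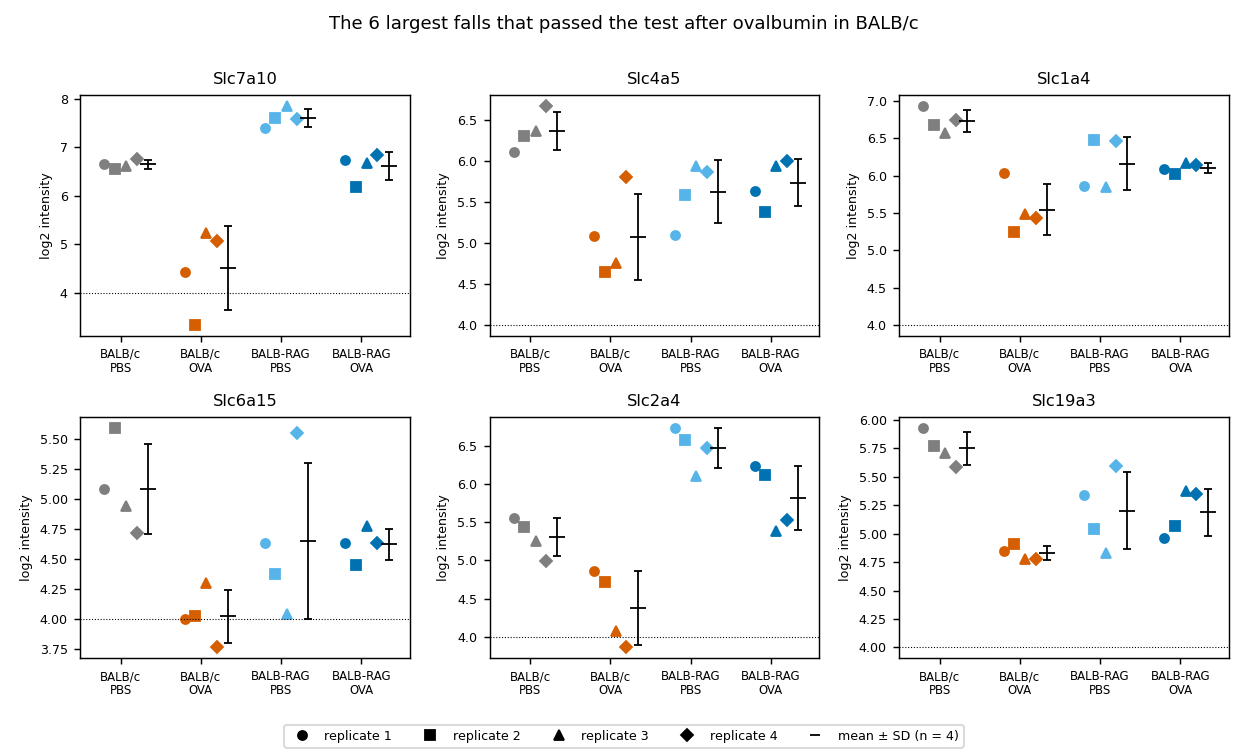
Log2 intensity per array of the 6 transporters with the largest fall that passed the test after ovalbumin in BALB/c, by group; symbols mark replicates, bars the mean ± SD (n = 4), and the dotted line the background of log2 4. In each panel the BALB/c OVA arrays lie below all BALB/c PBS arrays, and Slc7a10 and Slc2a4 sit higher on the arrays labelled BALB-RAG than on BALB/c arrays of the same exposure.

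All 12 falls and 9 of the 13 rises were without overlap between the BALB/c groups, and all 25 had the same sign in replicates 1 and 2 as in replicates 3 and 4. The 25 were picked by their calls on these same arrays, so neither count is separate support. The same holds for the called transporters of the line comparisons below. Carriers of the alveolar and airway epithelium were among those that did not pass the test. Slc34a2, the phosphate carrier of type II cells, was between 12.06 and 12.71 on all 16 arrays and differed by -0.01 ± 0.11 in BALB/c (adjusted p = 0.978). Slc12a2, the basolateral chloride loader of secretory epithelium, differed by -0.07 ± 0.16 (adjusted p = 0.855). Goblet cell markers rose in the same BALB/c arrays, 6 of 6 tested, and their mean went from 5.15, 4.39, 4.51 and 4.13 to 7.81, 8.15, 7.6 and 7.93.

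Some genes that work beside the transporters changed in BALB/c, where 8.73% of all genes tested rose and 6.78% fell (15.5% in either direction). Of 15 sodium pump and epithelial channel genes, 2 rose and 2 fell. Kcnn4, a calcium-activated potassium channel, rose by 3.21 ± 0.42 (adjusted p = 0.000106), and the sodium channel subunits Scnn1b and Scnn1g fell by -0.96 ± 0.18 (adjusted p = 0.00169) and -0.74 ± 0.17 (adjusted p = 0.0063). Fxyd4, a sodium pump regulator, was 7.14, 7.97, 4.96 and 4.38 after ovalbumin in BALB/c against 4.06 to 4.45 after saline, so that replicates 1 and 2 carried most of its rise of 1.84 ± 0.55 (adjusted p = 0.0315). In arginine and polyamine metabolism 3 of 13 rose and 0 fell by limma (4 and 1 at an unadjusted p under 0.05). Arg1, the arginase, was 2.26, 2.23, 2.56 and 2.47 after saline and 9.14, 9.83, 7.96 and 6.83 after ovalbumin. Gatm, which uses arginine for creatine synthesis, rose by 4.44 ± 0.26 (adjusted p = 4.53e-08) and Sat1, a polyamine acetylase, by 0.73 ± 0.13 (adjusted p = 0.00112).

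Iron, zinc and copper handling had 2 rises and 0 falls among 14 by limma (4 and 1 at an unadjusted p under 0.05). These were the siderophore binder Lcn2 by 3.37 ± 0.44 (adjusted p = 0.00011) and the metalloreductase Steap4 by 1.62 ± 0.39 (adjusted p = 0.0102). The 24 ABC transporters had 2 rises and 3 falls. The paralogs Abcb1b and Abcb1a, both drug efflux pumps, went opposite ways, by 0.83 ± 0.16 (adjusted p = 0.00247) and -0.88 ± 0.26 (adjusted p = 0.0286). Of 4 aquaporins 1 fell, Aqp1 of the endothelium by -0.69 ± 0.18 (adjusted p = 0.0182), and of 3 organic anion transporting polypeptides 1 fell, Slco3a1 by -0.74 ± 0.14 (adjusted p = 0.00146).

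On the arrays labelled BALB-RAG no transporter passed the test for ovalbumin against saline. Limma with Benjamini-Hochberg adjustment called 0 of 143, where 0.137% of all genes tested rose and 0.0275% fell (0.165% in all), and unadjusted p was under 0.05 for 8 higher and 2 lower transporters. The smallest adjusted p was 0.294, for the sulfate carrier Slc13a4, which read 4.19, 4.27, 4.18 and 3.95 after saline and 4.84, 4.64, 5.01 and 4.43 after ovalbumin, a difference of 0.58 ± 0.18. Groups did not overlap for 8 transporters there (4.62% of all genes tested). The 13 genes risen in BALB/c differed by -0.35 to 0.78 on these arrays, 11 of them upwards, and the 12 fallen by -1.0 to 0.32, 8 of them downwards. The average was smaller in size than in BALB/c for all 25, which were picked by their calls in BALB/c.

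Whether the responses differed was tested directly, as the BALB/c response minus that on the arrays labelled BALB-RAG. It passed for 9 transporters, 5 with a higher and 4 with a lower BALB/c response, against 4.63% and 3.86% of all genes tested (8.49% in all). Slc6a20a differed by 2.63 ± 0.56 (adjusted p = 0.00804), Slc7a8 by 1.76 ± 0.46 (adjusted p = 0.0257), Slc15a3 by 1.72 ± 0.40 (adjusted p = 0.0148), Slc5a1 by 1.37 ± 0.36 (adjusted p = 0.0269) and Slc39a11 by 1.17 ± 0.33 (adjusted p = 0.0407). The BALB/c response was the more negative one for Slc4a5 (-1.39 ± 0.35, adjusted p = 0.0218), Slc1a4 (-1.12 ± 0.26, adjusted p = 0.013), Slc6a9 (-1.01 ± 0.20, adjusted p = 0.00457) and Slc19a3 (-0.91 ± 0.22, adjusted p = 0.02). On a second probe set of Slc1a4 the responses were closer, -0.67 in BALB/c and -0.33 on the arrays labelled BALB-RAG. The probe set used gave -1.18 and -0.06. Slc7a8 was under log2 4 on all BALB/c PBS arrays and all arrays labelled BALB-RAG. The difference for Slc7a8 therefore rests in part on values under the background. For Slc7a2, Slc11a1 and Slc7a10, large in BALB/c, the test of the difference did not pass (adjusted p = 0.13, 0.229 and 0.13), so a difference between lines was not shown. After saline, the BALB-RAG minus BALB/c differences of Slc4a5, Slc1a4 and Slc19a3 were -0.73 ± 0.25, -0.57 ± 0.18 and -0.55 ± 0.16, and none passed the test (adjusted p = 0.122, 0.103 and 0.0687). With replicates 1 and 2 against 3 and 4 as a term, 19 transporters passed for the difference, 7 with a higher and 12 with a lower BALB/c response, and with array weights 23 did, 7 and 16.

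Without the BALB-RAG OVA replicate 2 array, which carries lymphocyte transcripts, 0 transporters were called on the arrays labelled BALB-RAG and 9 for the difference. Slc39a11 then missed the threshold (1.22, adjusted p = 0.0518). The BALB-RAG PBS arrays carry such transcripts too, with a T-cell marker mean of 4.22 to 4.78 against 3.25, 3.65 and 3.55 on OVA replicates 1, 3 and 4. In the BALB-RAG response and in the difference, exposure and lymphocyte content therefore cannot be told apart, with or without replicate 2. Slc6a20a, at 4.32 on that array against 3.33 to 3.43 on the other OVA arrays, gave a response of -0.03 without it and 0.21 with it. For Slc7a2, at 4.39 there against 5.33 to 5.46, the response was 1.03 without it (adjusted p = 0.239) and 0.78 with it (adjusted p = 0.528). Between the lines after ovalbumin 27 transporters were called without that array, 24 of them among the 29 called with it; Slc1a4, Slc23a2, Slc25a4, Slc25a42 and Slc30a1 were lost.

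**Figure D3:**
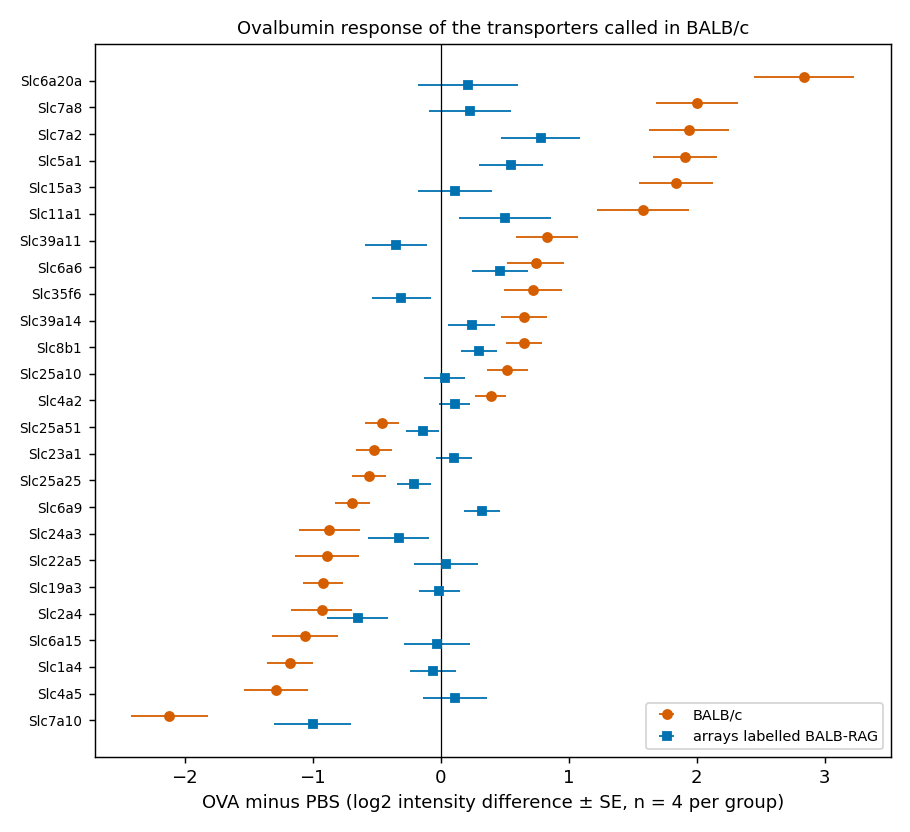
Ovalbumin minus saline difference in log2 intensity, with its SE, in BALB/c (circles) and on the arrays labelled BALB-RAG (squares), for the 25 transporters called in BALB/c. The squares lie between -1.0 and 0.78 and the circles between -2.12 and 2.84.

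Between the lines after saline, 6 transporters differed: 4 were higher and 2 lower on the arrays labelled BALB-RAG, where 1.97% of all genes tested were higher and 1.94% lower (3.9% in all). With replicates 1 and 2 against 3 and 4 as a term 17 were called. All 6 were without overlap, as were 15 transporters in all and 9.65% of all genes tested. Slc47a1, which exports organic cations, was 3.67, 3.3, 3.8 and 2.54 on BALB/c PBS and 5.83, 5.82, 4.52 and 6.47 on BALB-RAG PBS arrays. It was under log2 4 on all 8 BALB/c arrays and over it on all 8 labelled BALB-RAG, so it was at least 3.16-fold higher after saline (fitted difference 2.33 ± 0.34, adjusted p = 0.00138). After ovalbumin it read 2.2, 2.3, 2.16 and 2.55 in BALB/c and 5.65, 6.0, 5.34 and 5.93 on the arrays labelled BALB-RAG, at least 3.32-fold higher (fitted difference 3.43 ± 0.34, adjusted p = 4.86e-06).

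Slc2a4 was 6.73, 6.57, 6.11 and 6.47 on BALB-RAG PBS arrays, above the BALB/c PBS arrays given above by 1.16 ± 0.24 (adjusted p = 0.0139), and 6.23, 6.12, 5.39 and 5.53 on BALB-RAG OVA arrays. The skeletal muscle mean was 4.41, 8.01, 4.01 and 4.04 on BALB-RAG PBS and 7.13, 3.95, 3.52 and 7.01 on BALB-RAG OVA arrays. Slc24a3 read 5.56, 5.68, 6.65 and 6.04 on BALB/c PBS and 6.96, 7.05, 7.13 and 6.9 on BALB-RAG PBS arrays, a difference of 1.03 ± 0.24 (adjusted p = 0.0241). For Slc13a4 the BALB/c PBS arrays gave 3.54, 3.51, 3.76 and 2.87, all under log2 4, so that it was at least 1.12-fold higher on BALB-RAG PBS arrays (fitted difference 0.73 ± 0.18, adjusted p = 0.0291). The lower 2 were Slc5a3, which takes up myo-inositol, at 7.64, 7.87, 8.33 and 8.44 on BALB/c PBS and 6.84, 7.04, 7.48 and 7.45 on BALB-RAG PBS arrays (-0.87 ± 0.19, adjusted p = 0.0167), and Slc25a25. Slc25a25 was 7.02, 6.55, 6.92 and 6.82 and 6.21, 6.21, 6.33 and 5.95 (-0.65 ± 0.13, adjusted p = 0.0102).

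Adipose and cardiac markers differed between the same arrays. The adipose mean was 5.48, 6.13, 4.98 and 4.83 on BALB/c PBS and 8.13, 8.74, 5.68 and 7.87 on BALB-RAG PBS arrays, and 4 of 6 tested adipose markers were higher on the latter. The cardiac mean was 7.46, 7.38, 7.48 and 7.04 and 10.4, 8.94, 7.45 and 10.1, with 2 of 8 tested higher. BALB-RAG PBS replicate 3, the lowest of its group in both lists, was also the lowest for Slc47a1 at 4.52 and Slc2a4 at 6.11, but the highest for Slc24a3 at 7.13. Slc2a4 was lower in replicates 3 and 4 than in replicates 1 and 2 within each of the 4 groups, by -0.57 on average. The part of these tissues in the transporter differences was not tested.

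**Figure D4:**
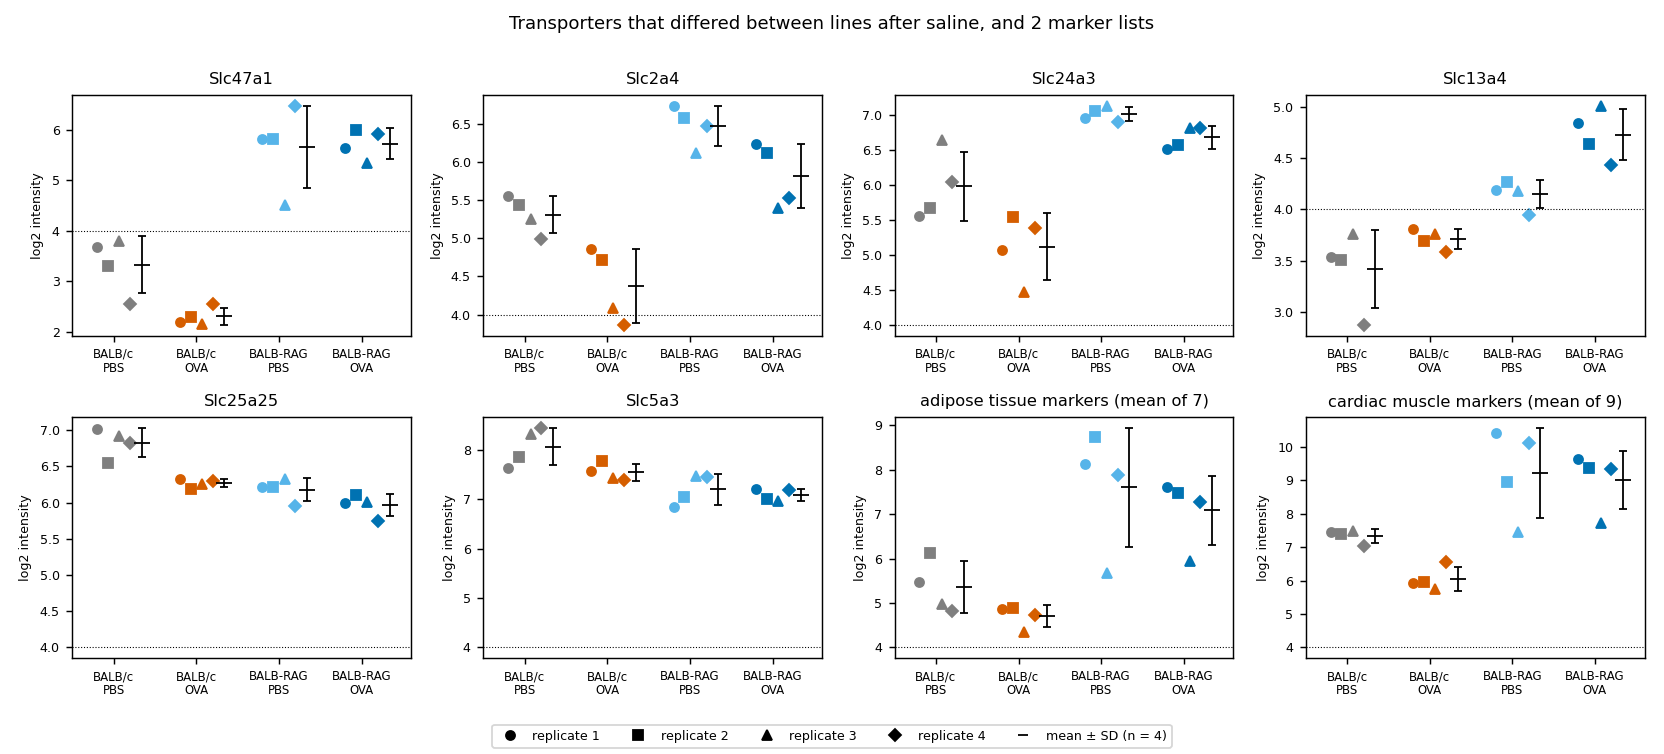
Log2 intensity per array of the 6 transporters that differed between lines after saline, and the mean level of 7 adipose and 9 cardiac markers, by group; symbols mark replicates, bars the mean ± SD (n = 4), and the dotted line the background of log2 4. Slc47a1 is over log2 4 only on the arrays labelled BALB-RAG, and replicate 3 is the low BALB-RAG array for both marker lists.

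After ovalbumin 29 transporters differed between the lines, 18 higher and 11 lower on the arrays labelled BALB-RAG, where 11.6% of all genes tested were higher and 12.1% lower (23.8% in all). Of the 29, 26 were without overlap, as were 40 transporters in all and 27% of all genes tested. These arrays are also those of the ovalbumin responses, so the values stand side by side and are not separate evidence; 16 of the 29 were also called in the BALB/c response, and 4 of the 6 called after saline were called here. The widest gap downwards was Slc6a20a at -3.54 ± 0.39 (adjusted p = 1.36e-05); 3 of the 4 BALB-RAG OVA arrays were under log2 4, and with values under log2 4 set to 4 the gap was -3.08 (adjusted p = 1.32e-07). It was followed by Slc15a3 at -2.12 ± 0.29 (adjusted p = 6.95e-05). Slc38a1, a glutamine carrier that was not called in BALB/c (0.70 ± 0.27, adjusted p = 0.0959), was 6.26, 6.57, 6.02 and 5.5 on BALB/c OVA and 4.6, 4.29, 3.98 and 4.49 on BALB-RAG OVA arrays, a gap of -1.74 ± 0.27 (adjusted p = 0.000229). Lymphocyte markers were lower on BALB-RAG OVA arrays in 8 of 10 T-cell and 8 of 9 B-cell genes tested, and their part in this gap was not tested.

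Upwards, Slc47a1 was followed by Slc7a10 at 2.09 ± 0.30 (adjusted p = 0.00013) and Slc4a4, a sodium-bicarbonate cotransporter, at 1.77 ± 0.23 (adjusted p = 5.24e-05). Other probe sets of Slc4a4 gave 1.33 and 0.4. Slc4a4 read 5.97, 5.78, 6.05 and 6.62 and 5.66, 5.96, 5.62 and 4.84 in BALB/c after saline and ovalbumin, and 6.61, 6.86, 7.02 and 7.32 and 7.12, 7.27, 7.44 and 7.31 on the arrays labelled BALB-RAG, so the OVA groups were apart. Slc6a9 was higher by 1.14 ± 0.14 (adjusted p = 3.21e-05), and Slc25a4, the ADP/ATP carrier of heart and muscle, by 1.14 ± 0.39 (adjusted p = 0.0468), where a second probe set gave 0.18. Slc25a4 was 12.1, 12.29, 11.1 and 11.69 on BALB-RAG OVA arrays with replicate 3 the lowest, as in the cardiac mean of 9.63, 9.36, 7.71 and 9.33; all 8 tested cardiac markers were higher on those arrays than on BALB/c OVA arrays. The part of cardiac tissue was not tested. Slc44a3, a choline transporter-like protein, was higher by 0.67 ± 0.11 (adjusted p = 0.000277).

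Blood-related carriers varied widely between saline arrays. Slc4a1, the anion exchanger of red cells, was 7.5, 8.88, 4.8 and 5.83 on BALB/c PBS and 5.07, 10.99, 7.19 and 5.78 on BALB-RAG PBS arrays. Slc25a37, the mitochondrial iron importer of erythroid cells, was 9.63, 10.41, 8.66 and 9.26 and 9.27, 12.59, 10.01 and 9.53. Replicate 2 was the highest array of both saline groups for both genes. Epb42, a red-cell membrane protein and the 1 of 12 listed erythroid markers with a placed probe set, was 3.69, 5.03, 3.37 and 3.33 and 3.07, 6.46, 3.51 and 2.88 on the same arrays. Slc6a4, the serotonin transporter of endothelium and platelets, was 4.48, 7.23, 4.03 and 4.63 on BALB-RAG PBS arrays, high on the same replicate 2. After ovalbumin Slc6a4 was under log2 4 on all BALB/c arrays, at 3.81, 3.48, 2.89 and 3.65 against 4.81, 4.86, 4.79 and 4.57 after saline, at least 1.69-fold lower, without passing the test (fitted difference -1.30 ± 0.48, adjusted p = 0.084). None of these 3 carriers was called in any of the 5 comparisons, and their BALB/c responses of -2.21 ± 1.04 for Slc4a1 and -1.09 ± 0.55 for Slc25a37 had adjusted p of 0.179 and 0.222. The share of blood in these lungs was not tested.

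**Figure D5:**
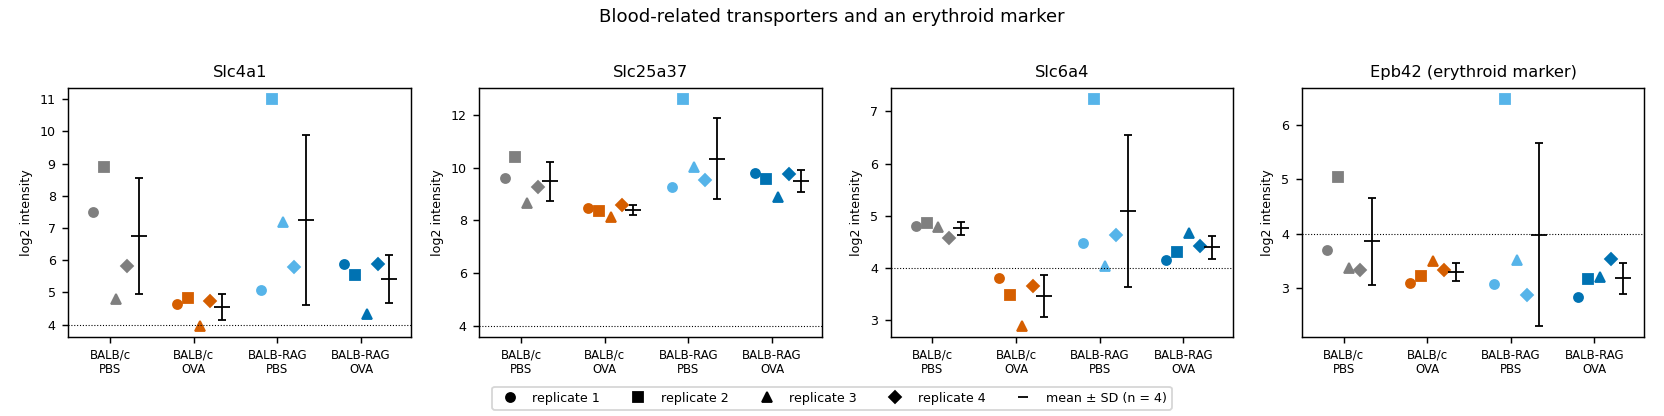
Log2 intensity per array of Slc4a1, Slc25a37, Slc6a4 and the erythroid marker Epb42, by group; symbols mark replicates, bars the mean ± SD (n = 4), and the dotted line the background of log2 4. BALB-RAG PBS replicate 2 is the highest array in all 4 panels.

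Replicates 3 and 4 differed from replicates 1 and 2 in every group for some transporters. In 18 of 143 (12.6%, against 18.6% of all genes tested) replicates 3 and 4 were all above or all below replicates 1 and 2 within each of the 4 groups, 13 higher and 5 lower. Slc16a12, a creatine carrier, was higher by 0.90 on average in replicates 3 and 4 and Slc25a16 by 0.68, while Slc7a5, the large neutral amino acid carrier, was lower by -1.04 and Slc25a23 by -0.88. Slc2a4, among the 5 lower ones, differed by -0.57. Each array's closest match in another group lay among the same 2 replicate numbers (16 of 16). The labels do not say what sets these replicates apart.

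Leaving out 1 array at a time, 15 of the 25 BALB/c calls, 5 of the 9 differences between responses, 3 of the 6 saline line calls and 21 of the 29 ovalbumin line calls were kept in all 16 runs. In BALB/c, without BALB/c OVA replicate 2 the rises numbered 7 and without BALB/c PBS replicate 3 they numbered 8, in place of 13. Slc22a5 was lost without either of those arrays (adjusted p up to 0.0812), Slc2a4 without BALB/c OVA replicate 4 or PBS replicate 1 (up to 0.0513), and Slc39a11 without BALB/c OVA replicate 1 or 2 or PBS replicate 3 (up to 0.0969). Slc23a1 was lost without BALB/c OVA replicate 1 or 2 or PBS replicate 4 (up to 0.0636). Slc24a3 and Slc25a10 each depended on 4 BALB/c arrays (up to 0.0686 and 0.113), as did Slc39a14 (up to 0.0743). Slc6a6 was lost without any 1 of 5 BALB/c arrays (up to 0.0846), Slc4a2 without any 1 of 7 arrays (up to 0.124) and Slc35f6 without any 1 of 10 (up to 0.154). Among the differences between responses, Slc4a5 was lost without BALB/c OVA replicate 2 or PBS replicate 4 (up to 0.051), Slc5a1 and Slc7a8 each without any 1 of 3 arrays (up to 0.0617 and 0.0597) and Slc39a11 without any 1 of 11 (up to 0.089). The count of such differences was 5 without BALB/c OVA replicate 2 and 14 without BALB/c OVA replicate 4. After saline, Slc13a4 and Slc24a3 were each lost without any 1 of 5 saline arrays (up to 0.0798 and 0.0783) and Slc5a3 without any 1 of 4 (up to 0.0596), and the count of 6 became 3 without BALB-RAG PBS replicate 1 or 2 and 12 without replicate 3. After ovalbumin the lost calls were Slc1a4, Slc22a5, Slc23a2, Slc25a4, Slc25a42, Slc30a1, Slc37a3 and Slc39a14 (up to 0.147).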

How the data were processed

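TRIZOL was used for RNA extraction and 6 µg of total RNA for biotinylated cRNA, per the labels' protocols. The deposited values are linear intensity, made by the authors with GCRMA per the submitters' processing notes (version and build not given in the sources used here); log2 was taken here and nothing was renormalized. Probe set labels in the deposited table are displaced from their values, so 14300 of 45101 labels were moved back: by 64 rows up, 47 rows down and 16168 rows down in 3 stretches. These shifts had the highest agreement in level between probe sets of 1 gene among 351, 401 and 401 shifts tried, a score that uses no group difference. For the second stretch the working rule said 47 rows above; there the correlation of levels was 0.207, against 0.562 below, and below was used. No document of the submitters describes the displacement, and every gene name rests on this step. Among moved labels, 13146 carried a single symbol, 788 carried none, and 366 with several were left out. A gene was tested if 4 or more arrays read over log2 4, and the probe set with the highest mean stood for its gene; 207 of the 212 transporters matched RefSeq (GRCm38.p6) by gene ID, with 0 symbols changed.

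Differences were fitted with limma 3.58.1 (R 4.3.3) as 4 group means over 16 arrays, with 12 residual degrees of freedom, empirical Bayes and Benjamini-Hochberg adjustment over all 7276 genes at 0.05, in 5 comparisons. On simulated data for the BALB/c comparison with 200 of 7276 genes changed, 66 of 100 shifts of log2 1 and 93 of 100 of log2 2 were recovered. Named genes are the called transporters, up to 15 rises and 15 falls in BALB/c and up to 8 each elsewhere, 10 carriers of known role in lung, up to 4 per role and up to 3 per related list by smallest p; Slc25a37, Slc16a12, Slc25a16, Slc7a5 and Slc25a23 and the marker lists shown beside results were chosen after seeing values. The members and lists were chosen with earlier results of these data known. Role groups of transporters follow the family number, so a group can hold carriers of other substrates. Same-numbered arrays deviated together in 23 of 24 pairs (r 0.0253 to 0.497), and the closest match bore the same number for 6 of 16 arrays, so replicate numbers were not taken as pairs. The number of arrays limits the precision.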

Additional observations from a re-analysis of the deposited data

Results flagged for a closer look

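The ovalbumin response of 9 transporters differed between BALB/c and the arrays labelled BALB-RAG by limma's test of the difference itself (BALB/c minus BALB-RAG, log2). Slc6a20a (2.63), Slc7a8 (1.76), Slc15a3 (1.72), Slc5a1 (1.37) and Slc39a11 (1.17) had the higher response in BALB/c. Slc4a5 (-1.39), Slc1a4 (-1.12), Slc6a9 (-1.01) and Slc19a3 (-0.91) had the lower one.

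A lone array was found in 8 of 148 groups of 4 checked, over 37 named transporters, by Dixon's criterion (the gap to the nearest array over the range of the group); chance gives about 1 in 20. Slc7a8 was 4.03 on BALB/c OVA replicate 4 against 5.72 to 6.06 on the others, and 3.96 on BALB-RAG OVA replicate 1 against 3.65 to 3.68. Slc7a2 was 3.68 on BALB/c PBS replicate 3 against 4.64 on each of the others, and 4.39 on BALB-RAG OVA replicate 2 against 5.33 to 5.46. Slc6a20a was 4.32 on BALB-RAG OVA replicate 2 against 3.33 to 3.43. Slc39a11 was 6.02 on BALB-RAG PBS replicate 4 against 6.32 to 6.36. Slc25a51 was 10.97 on BALB-RAG PBS replicate 2 against 10.39 to 10.43, and 10.62 on BALB/c PBS replicate 2 against 10.55 to 10.57.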

How the results depend on the processing

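Array weights raised the number of transporters called from 25 to 40 in BALB/c, from 9 to 23 for the difference between responses, from 6 to 15 between lines after saline and from 29 to 53 after ovalbumin. With the replicate number as a block these counts were 32, 19, 13 and 38, and with replicates 1 and 2 against 3 and 4 as a term 35, 19, 17 and 39, with 0 and 1 called on the arrays labelled BALB-RAG. Replicate numbers were not shown to be pairs. With replicates 3 and 4 alone, which leaves 2 arrays a group, the counts were 10, 0, 0 and 11, and with replicates 1 and 2 alone 23, 11, 10 and 29. With only the groups compared in the fit, 3 transporters were called between lines after saline; in BALB/c 21 were, of which 8 rose. The stricter filter gave 19 in BALB/c, the mean of all probe sets 20, renormalized values 24 and no filter 26. The working rule placed the second stretch of labels 47 rows above, and the placement used, 47 rows below, was chosen from these data. With 47 rows above, 17 transporters were called in BALB/c (8 rises and 9 falls), of which 11 were among the 25. The other comparisons then had 0, 10, 5 and 24 calls. Leaving out 1 array gave 17 to 27 calls in BALB/c, 0 to 1 on the arrays labelled BALB-RAG (1 without BALB/c OVA replicate 2), 5 to 14 for the difference, 3 to 12 after saline and 21 to 31 after ovalbumin. For named transporters, counted without the placement 47 rows above, no called difference changed sign. Outside the runs that left out an array 575 results kept their side of the threshold, 76 lost it and 4 gained it. Within those runs the numbers were 904, 87 and 1. Leaving aside the difference between responses, other detected probe sets were set beside called results 18 times and had the same sign in 17. Both other probe sets of Slc4a4 are counted. The other probe set of Slc23a2 had the opposite sign (0.52 and -0.06 between lines after ovalbumin). The second probe set gave a far smaller difference for Slc25a4 (1.14 and 0.18), Slc35f6 (-0.86 and -0.12) and Slc30a1 (0.43 and 0.03) in that comparison and for Slc39a14 in BALB/c (0.65 and 0.10). For Slc4a4 between lines after ovalbumin, other probe sets gave 1.33 and 0.4 against 1.77. The cause of these shifts was not tested. Transporters near log2 4 are limited by background.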
